A study of Mus musculus with 7 samples.

Results

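Igf2bp1, Igf2bp2, Igf2bp3, Hmga1, Hmga2 and Lin28b are growth genes of the embryo and fetus, and their RNA was followed here in single cells of mouse brain from the first postnatal week to the adult. They were chosen by symbol, 6 of the 31053 genes in the count matrices, with no measured value in the rule. All 6 had at least 1 UMI (unique molecular identifier, 1 counted RNA molecule) in the cells kept. The study profiled dissociated primary brain cells with the 10x Chromium 3' kit in 7 libraries. P2, P7, P15 and P60 (postnatal day) cortex, from CD1 mice, took everything dorsal to the lateral ventricles, so that each held the ventricular-subventricular zone (V-SVZ), the white matter and the grey matter. P60 grey matter, also CD1, was the tissue above the cortical white matter, and P60 white matter, CD1, was the corpus callosum with the V-SVZ beneath it. P7 SVZ came from C57BL/6 mice, as microdissected dorsal and lateral V-SVZ. No library had a treatment or a mutant allele. The 4 libraries of P2 to P15 are called early postnatal and the 3 of P60 adult. The labels do not say whether libraries came from separate animals, so p-values measure the spread between these libraries.

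The Igf2bp proteins bind messenger RNAs and affect where they go, how long they last and how they are translated, with Actb, Igf2, H19 and Myc among their known targets. Hmga1 and Hmga2 are small chromatin proteins that bend AT-rich DNA. Lin28b binds the precursors of the let-7 microRNAs and blocks their maturation, and let-7 in turn represses Lin28b, Hmga2 and the Igf2bp family, so that the genes form a switch between a fetal state with little let-7 and a mature state with much of it. In the developing brain these genes are known from neural stem and progenitor cells, where Hmga2 and Igf2bp1 help to sustain self-renewal before birth, and Igf2bp2 is the family member best known from adult tissues.

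The let-7 link can be read in the transcripts themselves. RefSeq's mature mouse let-7 family has 11 names in the table used (mm10), and 10 of them share the seed GAGGUAG at bases 2 to 8. The sequences below are given 5′ to 3′ with the seed in capitals, to show the family's common end (let-7a, miR-98) and the 1 member that departs from it (let-7j).

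mmu-let-7a-5p: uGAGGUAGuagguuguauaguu
mmu-miR-98-5p: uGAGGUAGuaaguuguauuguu
mmu-let-7j: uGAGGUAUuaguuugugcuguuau

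The match to the shared seed, CTACCTC on the transcript strand, was searched in 1 3' UTR per coding gene (GENCODE M21, mm10), and 1695 of 20682 UTRs (8.2%) held it. All 6 genes held at least 1 match. Igf2bp1, Hmga2 and Lin28b each held 4, and Igf2bp2, Igf2bp3 and Hmga1 each held 1. Long UTRs hold more matches by length alone: among the 500 UTRs nearest in length, 32.8% held a match for Igf2bp1 (UTR of 6337 bases), 22.4% for Lin28b (4445), 14.2% for Hmga2 (2977), 13.2% for Igf2bp3 (2119), 10.4% for Igf2bp2 (1784) and 9.6% for Hmga1 (1183). As many as 4 matches were held by 0.2% of the UTRs near the length of Igf2bp1, 0.4% of those near Lin28b and none of those near Hmga2. The site closest to the stop codon of each gene is shown with 11 bases on either side and the match in capitals.

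Lin28b, chr10:45381012-45381040, minus strand: gggcgggaagtCTACCTCatgcaagcaca
Hmga2, chr10:120364214-120364242, minus strand: acattcaatttCTACCTCagcatcagttg
Igf2bp1, chr11:95961768-95961796, minus strand: tgcgaagtaaaCTACCTCaaggtgtgaag
Igf2bp2, chr16:22059463-22059491, minus strand: acaaataaaagCTACCTCaggtgtttttt
Igf2bp3, chr6:49086777-49086805, minus strand: tttttactcaaCTACCTCaggtattcagt
Hmga1, chr17:27563281-27563309, plus strand: ctgttcacaaaCTACCTCtggacggttgt

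In Lin28b and Hmga2 this first site began 36 and 21 bases after the stop codon, and in both it was followed by an A. The Hmga1 site was followed by another base. A match is a description of the letters and not a measured site of action, and mature microRNAs were not measured in these libraries.

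**Figure D1:**
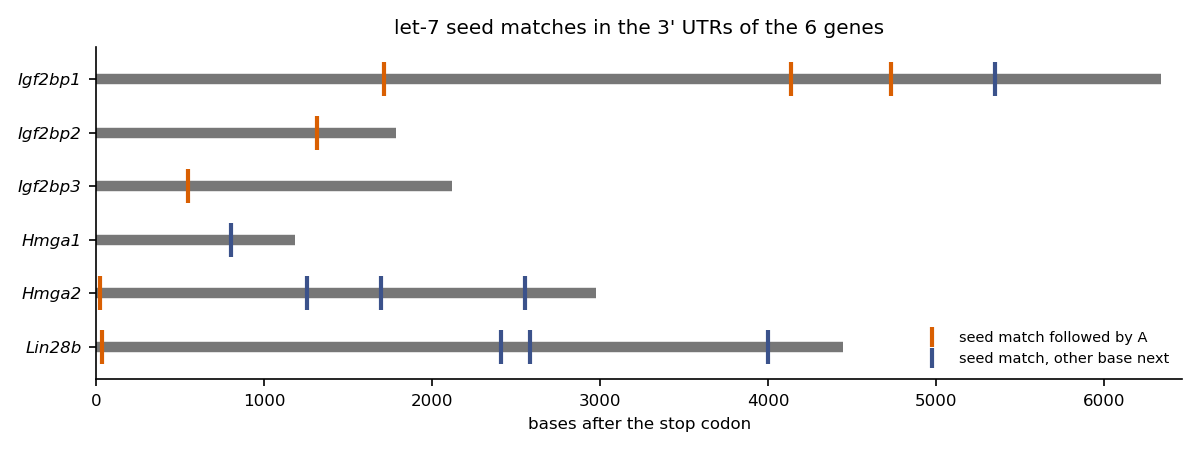
Positions of let-7 seed matches in the 3' UTR of each gene, drawn to scale from the stop codon (x axis, bases); orange ticks mark matches followed by an A and blue ticks those followed by another base. Igf2bp1, Hmga2 and Lin28b carry 4 matches each, and in Hmga2 and Lin28b the first lies within the first 36 bases.

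After filtering, 20697 cells remained, between 1857 (P60 grey matter) and 4069 (P7 cortex) a library, with median depths of 2791 to 9530.5 UMIs a cell. Cell classes carry the ending "-like" because they rest on RNA markers, and in every class and library used at least 4 of its markers were detected in over 10% of cells. P7 SVZ stood apart: it was the only C57BL/6 library, 39.82% of its barcodes were over the limit on mitochondrial UMIs, and it shared 0 or 1 barcodes with each other library, where the others shared 2 to 28 with one another. P60 grey matter held 0 excitatory neuron-like cells and 1133 microglia-like cells of 1857, so it gives no value for cortical neurons. Levels are given as CPM, the UMIs of a gene scaled to a total of 1000000 UMIs in the cells summed, with exact Poisson 95% intervals that cover counting error only.

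The 6 genes differed in how they were spread over age (see the plot of all kept cells by library). Igf2bp1 was an early gene, with 134 UMIs in P2 cortex, 49 in P7 cortex, 34 in P7 SVZ, 3 in P15 cortex, 0 in P60 cortex, 0 in P60 grey matter and 1 in P60 white matter, so that 99.55% of its 221 UMIs were early postnatal. Lin28b, with 200 UMIs, had 161 of them in P7 SVZ, 25 in P2 cortex, 9 in P60 cortex and 0 to 3 in each of the other 4. Igf2bp2 had 373 UMIs, of which 163 were in P7 SVZ and 8 to 14 in each adult library. Igf2bp3 had 5226 UMIs, 83.51% of them early postnatal, in 20.86% of all cells and at every age. Hmga1 had 1060 UMIs, 79.06% of them early postnatal, also at every age. Hmga2 had only 89, between 6 and 23 a library. Such counts also follow library size: before filtering the early libraries held 25546932 to 45668007 UMIs each and the adult ones 10074763 to 12010987.

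**Figure D2:**
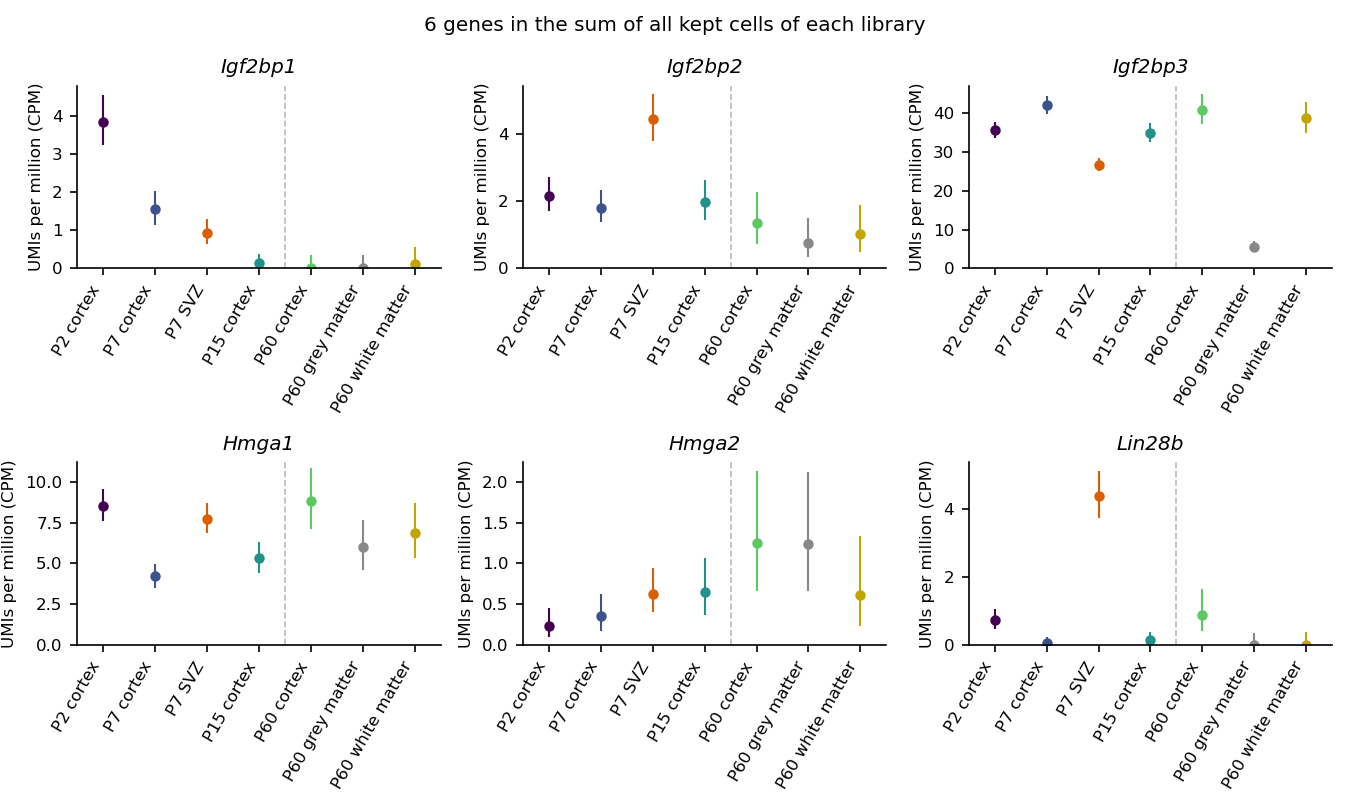
Level of each gene (y axis, CPM) in the sum of all kept cells of each library (x axis), with exact Poisson 95% intervals; the dashed line separates early postnatal from adult libraries. Igf2bp1 steps down from 3.86 at P2 to 0.129 at P15, Lin28b and Igf2bp2 are highest in P7 SVZ, and Igf2bp3 is low in P60 grey matter alone.

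For Igf2bp1 the level in all kept cells was 3.86 CPM (3.235 to 4.573) in P2 cortex, 1.55 (1.146 to 2.048) in P7 cortex and 0.129 (0.02657 to 0.3765) in P15 cortex. P2 cortex was 2.493 times P7 cortex (1.785 to 3.532), and P7 cortex was 12.02 times P15 cortex (3.88 to 60.3). P60 cortex had 0 UMIs, and P2 cortex stood 13.39-fold above a floor of 3 UMIs in that library. The exact interval of P2 over P60 cortex began at 10.74. In such sums, fewer cells of a type and less RNA per cell cannot be told apart. Each early library was above each adult one for Igf2bp1 and for Igf2bp2. The exact permutation test over the 4 early and 3 adult libraries, two-sided, gave p = 0.05714 for each of these 2 genes, the smallest value this design allows, and adjusted p = 0.1714 over the 6 genes. For the other 4 genes its p lay between 0.1714 and 0.7429.

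Across all genes the sums were tested by edgeR (quasi-likelihood, Benjamini-Hochberg adjusted), and a gene was called at an adjusted p under 0.05. In all kept cells all 6 genes were tested and 0 were called, where 0.0319% of all genes were. Igf2bp1 had a log2 difference, adult minus early, of -5.33 (SE 1.6, adjusted p = 0.202 in edgeR), a fitted value that depends on the prior count since the adult libraries held 1 UMI, and which was -8.37 without P60 white matter. DESeq2 gave -5.42 with adjusted p = 0.0217, and it called 1328 genes where edgeR called 5. Igf2bp2 had a difference of -1.15 (SE 0.548, edgeR adjusted p = 0.297), which was -0.795 without P7 SVZ, Lin28b of -2.14 (SE 1.71, adjusted p = 0.512; -7.96 without P60 cortex, and under the filter without P7 SVZ) and Hmga2 of 1.4 (SE 0.63, adjusted p = 0.277). Igf2bp3 (-0.253, SE 0.523) turned to 0.139 without P60 grey matter, and Hmga1 differed by 0.316 (SE 0.428).

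Within classes the stage tests reached few of the 6, because a gene had to pass a filter on low counts. In OPC-like cells (oligodendrocyte precursors) 1 of 6, Igf2bp3, was tested and 0 were called, against 6.31% of all genes. Microglia-like cells had 3 tested and 0 called (background 0.0314%), and astrocyte-like cells 2 tested and 0 called (0.0378%). Neuroblast-like cells had 1 tested and 0 called (0.0222%), as did COP-like cells (committed oligodendrocyte precursors), where the background was 0%: edgeR called 0 genes there, 943 had an unadjusted p under 0.05, and DESeq2 called 43. Endothelial-like and mural-like cells had 0 of the 6 tested. These counts say little about the rarer members, whose values by class follow.

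**Figure D3:**
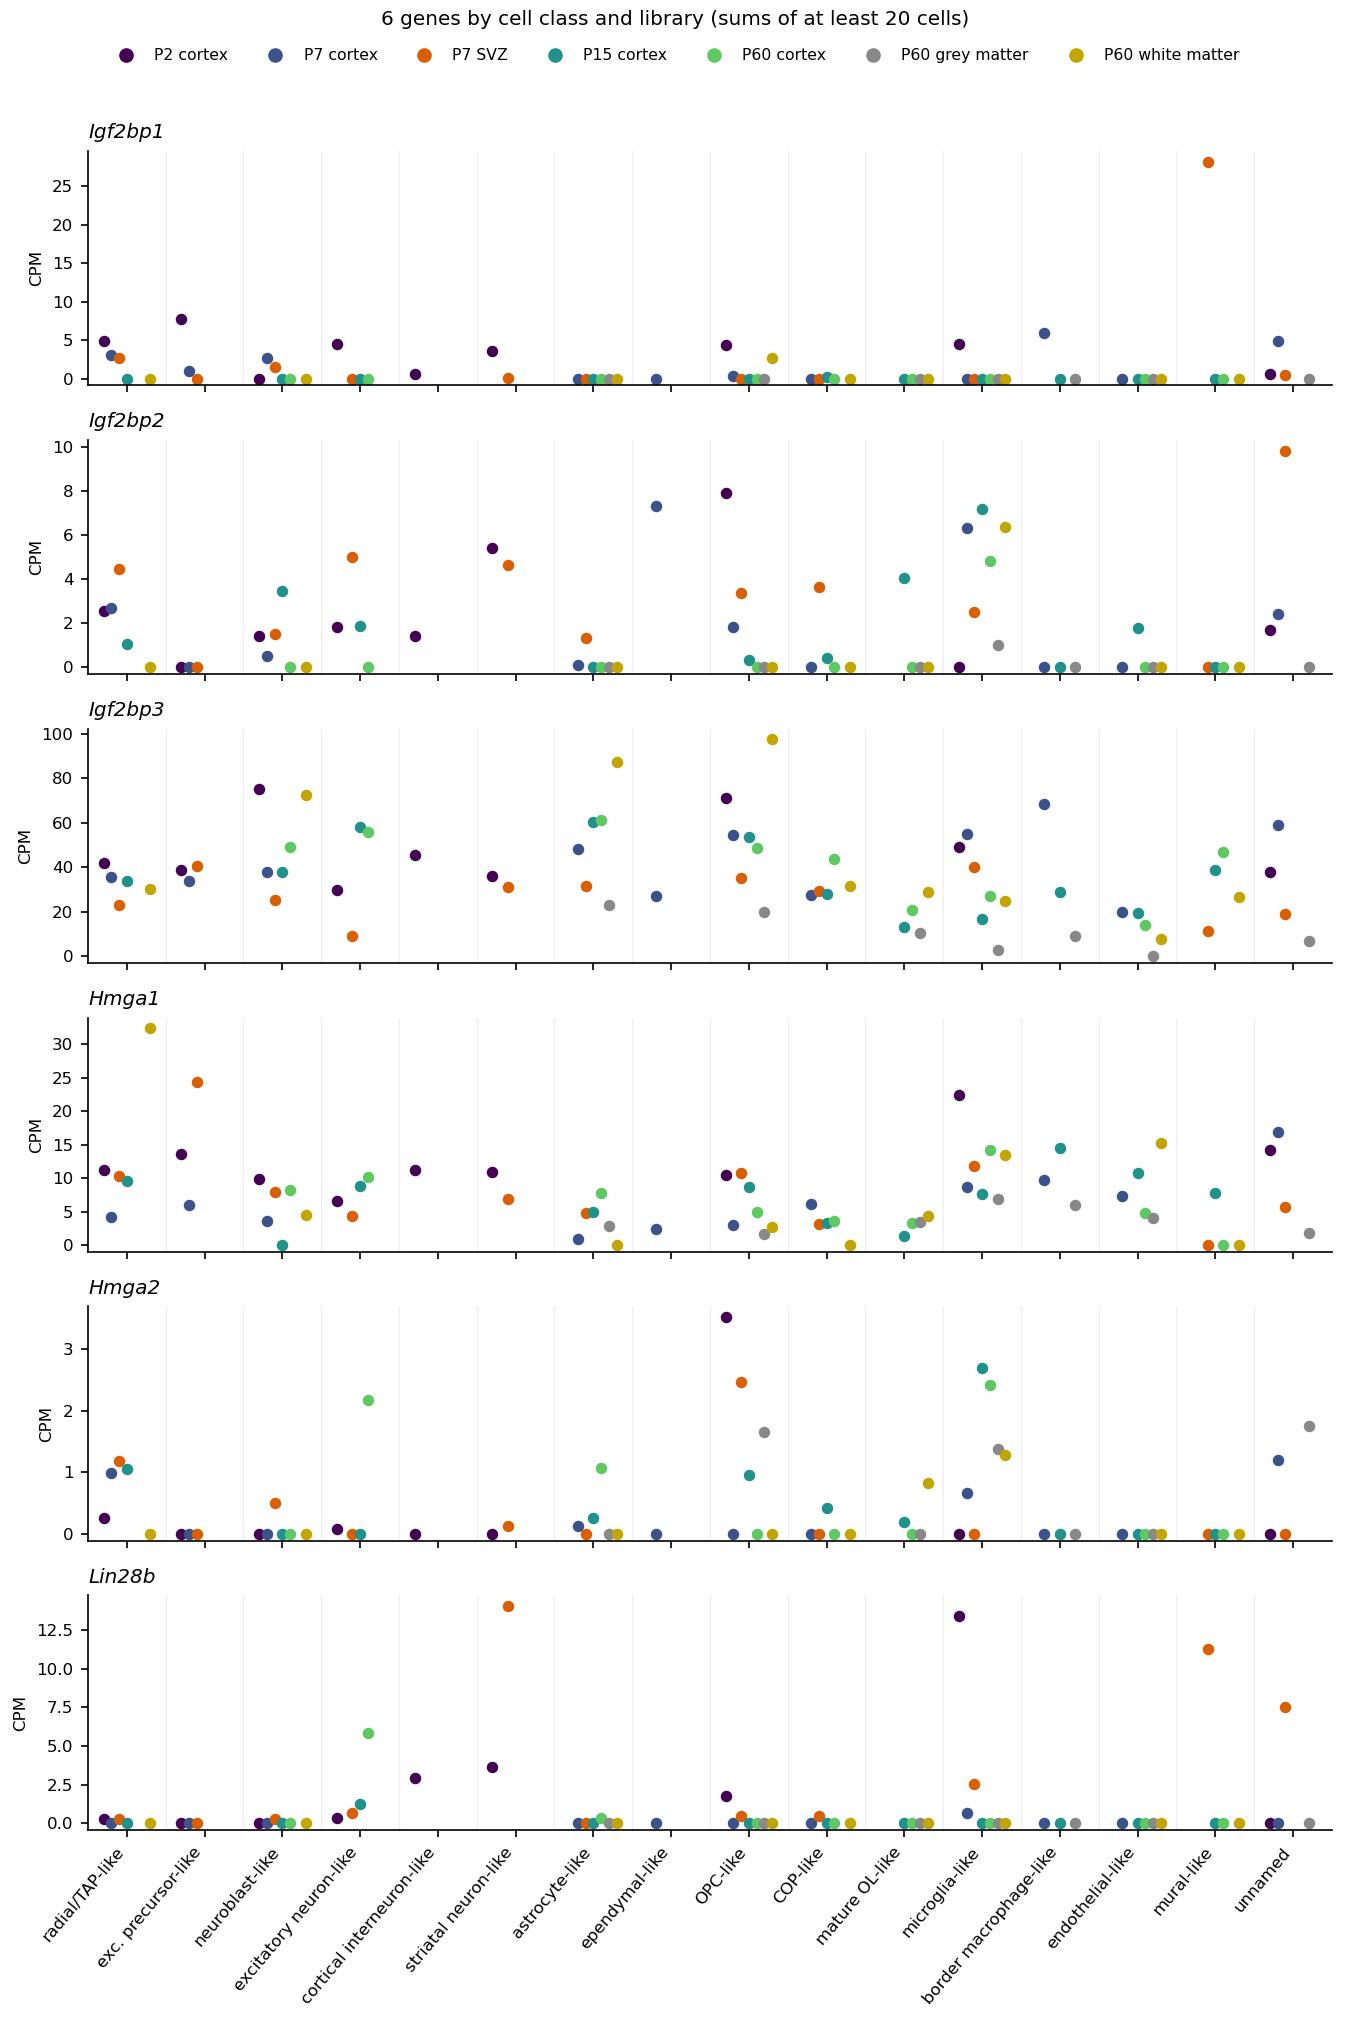
Level of each gene (y axis, CPM, one row per gene with its own scale) in each cell class (x axis), with 1 point per library summed over at least 20 cells; TAP, transit-amplifying precursor; OL, oligodendrocyte. Lin28b stands at 14.1 CPM in striatal neuron-like cells of P7 SVZ and near 0 in most glia, while Igf2bp3 is above 0 in nearly every class.

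Igf2bp1 (chr11:95957163-96005940, minus strand), the family member best known for carrying Actb mRNA into growing axons and for its role in fetal progenitors, was found mainly in neurons of the newborn cortex and in precursors. Excitatory neuron-like cells of P2 cortex gave 97 UMIs (4.46 CPM, 3.617 to 5.441), and the same class gave 0 UMIs in P7 SVZ, P15 cortex and P60 cortex. In that class P2 cortex stood 2.346-fold above a floor of 3 UMIs in P15 cortex and 2.045-fold above that floor in P60 cortex. The exact intervals of P2 over P15 and of P2 over P60 cortex began at 1.872 and 1.632. In P2 cortex a UMI was seen in 5.327% of excitatory neuron-like cells (median 13064 UMIs a cell), in 0.5102% of cortical interneuron-like cells (8220.5) and in 0 of 158 neuroblast-like cells (3781). Its cortical neuron signal was therefore not spread evenly over the classes of that library.

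Precursors carried Igf2bp1 at P2 and P7. Radial or transit-amplifying precursor-like cells, the stem and progenitor cells of the V-SVZ, had 19, 22 and 20 UMIs in P2 cortex, P7 cortex and P7 SVZ (4.84, 3.13 and 2.62 CPM). They had 0 in P15 cortex and 0 in P60 white matter, where 0 UMIs allow up to 3.189 and 6.466 CPM (3 UMIs), so a level like that of P7 cortex would not have been detectable there. Excitatory intermediate precursor-like cells had 4 UMIs at P2 and 1 in P7 cortex (7.78 and 0.998 CPM). Neuroblast-like cells, the young migrating neurons of the V-SVZ, had 10 and 6 UMIs in P7 cortex and P7 SVZ and 0 in the other 4 libraries.

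In glia Igf2bp1 was rare. OPC-like cells had 5 UMIs in P2 cortex (4.39 CPM), 1 in P7 cortex, 1 in P60 white matter and 0 in the other 4 libraries. Astrocyte-like cells had 0 UMIs in 17503816, and mature oligodendrocyte-like cells 0 in 12101173. Outside the neural lineage, 20 mural-like cells of P7 SVZ held 5 UMIs (28.2 CPM, 9.155 to 65.8), and the mural-like cluster led by Kcnj8, Higd1b and Abcc9 held 9 UMIs in 41 cells, at 27.73 CPM (12.68 to 52.65). The 33 fibroblast-like cells held 5 UMIs (14.76 CPM). Both of these rest on a handful of molecules.

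Igf2bp2 (chr16:22059009-22163299, minus strand), which binds mRNAs for metabolic and mitochondrial proteins, was at or near 0 in adult neural cells but present in microglia-like cells at all ages except P2, where 25 such cells were found. In microglia-like cells it had 0 UMIs in P2 cortex, 19 in P7 cortex, 3 in P7 SVZ, 16 in P15 cortex, 14 in P60 cortex, 8 in P60 grey matter and 10 in P60 white matter, or 0, 6.33, 2.52, 7.18, 4.84, 1.01 and 6.38 CPM. The low value at P60 was that of grey matter: white matter stood 6.324 times above it (2.247 to 18.44), with 1 library a side and no test. The 2 libraries held different microglia-like clusters: 973 of the 1133 grey matter cells were in cluster 35, led by the cytokine gene Il1a, which had 11 white matter and 8 P60 cortex cells, and white matter cells were mainly in clusters 3 and 4 (223 and 124). Between stages the microglia-like difference was -0.422 (SE 0.722, edgeR adjusted p = 0.845), and it was 0.146 without P60 grey matter.

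In the oligodendrocyte lineage Igf2bp2 was seen only in early libraries. OPC-like cells had 9, 5, 15 and 1 UMIs in P2 cortex, P7 cortex, P7 SVZ and P15 cortex (7.91, 1.85, 3.37 and 0.32 CPM) and 0 in all 3 adult libraries, where 0 UMIs allow up to 7.334, 4.967 and 8.125 CPM. The P2 cortex level was above the limits of P60 cortex and P60 grey matter, and the other 3 early levels were below the limit of each adult library and would not have been detectable there. Mature oligodendrocyte-like cells, which make myelin, had 21 UMIs at P15 (4.04 CPM, 2.504 to 6.182) and 0 in each adult library. That P15 level was 2.401-fold above a floor of 3 UMIs in P60 cortex. The exact interval of P15 over P60 cortex began at 1.786. COP-like cells had 8 UMIs in P7 SVZ and 0 in P7 cortex. The P7 SVZ level was 2.789-fold above a floor of 3 UMIs in P7 cortex, and the exact interval of their ratio began at 1.785.

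Igf2bp2 was highest in P7 SVZ. Over all kept cells that library had 4.45 CPM against 1.80 in P7 cortex, a ratio of 2.467 (1.815 to 3.398), but region, strain and library cannot be told apart in this pair. Excitatory neuron-like cells of P7 SVZ stood at 5.005 CPM. Its 25 excitatory intermediate precursor-like cells had 0 UMIs, which allow up to 24.33 CPM (3 UMIs). A level like that of the whole library would not have been detectable in them. Most Igf2bp2 UMIs of P7 SVZ lay in radial or transit-amplifying precursor-like cells (34, 4.46 CPM), striatal neuron-like cells (36, 4.64 CPM) and unnamed clusters (47, 9.84 CPM). One unnamed cluster led by Hs3st4, Nxph3 and Trbc2, almost all from P7 SVZ, held 28 of them in 103 cells (12.17 CPM, 8.086 to 17.59). Within single classes the ratio of P7 SVZ to P7 cortex had an interval that included 1 in radial or transit-amplifying precursor-like (1.65, 0.915 to 3.063), OPC-like (1.821, 0.6292 to 6.405), neuroblast-like (2.835, 0.5069 to 28.72) and microglia-like cells (0.3983, 0.07549 to 1.353). It excluded 1 in COP-like cells, given above, and in the unnamed clusters (4.072, 1.066 to 34.61). Different clusters held these classes in the 2 libraries, here and for Igf2bp3 and Hmga1 below: OPC-like cells of P7 SVZ were mostly in cluster 47 (455 cells) and those of P7 cortex in clusters 8 and 24 (195 and 94), astrocyte-like in cluster 15 against 16, 30 and 33, neuroblast-like in 44 and 46 against 12 and 27, and radial or transit-amplifying precursor-like in 40 against 64 and 7.

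Igf2bp3 (chr6:49085223-49214957, minus strand), an RNA-binding protein otherwise best known from the placenta, the fetus and tumours, behaved unlike its 2 relatives. It was found in every class summed, with class means between 12.32 ± 8.529 CPM (SD, n = 5 libraries) in endothelial-like and 54.42 ± 24.96 CPM (n = 7) in OPC-like cells. The next classes below OPC-like, astrocyte-like (52.12 ± 23.16, n = 6) and neuroblast-like (49.62 ± 20.11, n = 6), lay within that spread. Free RNA in droplets can put UMIs of a gene into any class, and its part here was not tested. Within 1 library, P7 cortex, the level was 19.98 CPM in endothelial-like and 54.73 in OPC-like cells, and with cells thinned to 2000 UMIs the shares with a UMI were 5.952% (1.961 to 13.35; median depth 10084 UMIs) and 9.88% (6.899 to 13.6; 7697). Its annotated 3' end shares 1529 bases (chr6:49085223-49086751) with Malsu1, a mitochondrial ribosome assembly gene on the opposite strand, and whether reads were counted by strand is not given in the sources used here. Reads of these 2 genes may therefore not be fully separable.

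Among the adult libraries Igf2bp3 was lowest in grey matter, in all 4 glial classes compared. Over all kept cells P60 cortex had 40.95 CPM, white matter 38.74 and grey matter 5.54, and white over grey matter was 6.996 (5.295 to 9.391). Microglia-like cells, 1133 of the 1857 grey matter cells, had 2.901 CPM there, 24.89 in white matter and 26.95 in P60 cortex, with a white to grey ratio of 8.579 (4.998 to 15.05), between the different clusters named for Igf2bp2. The ratio was 4.907 (2.495 to 10.36) in OPC-like, 3.789 (1.647 to 9.756) in astrocyte-like and 2.778 (0.9312 to 13.63) in mature oligodendrocyte-like cells, so the last interval included 1. In these 3 classes both libraries lay in the same cluster: cluster 43 held all 127 grey and 104 white matter astrocyte-like cells, cluster 24 held 120 and 87 OPC-like cells, and cluster 51 held 30 and 883 mature oligodendrocyte-like cells.

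The difference was as clear at equal depth: microglia-like cells of grey matter had a median of 7156 UMIs and those of white matter 4152, and once each cell was thinned to 2000 UMIs the share with an Igf2bp3 UMI was 0.8189% (0.3751 to 1.549) against 5.607% (3.357 to 8.718). Malsu1 was also lower in grey matter microglia-like cells, at 14.0 CPM against 33.18 in white matter, but not in OPC-like cells (86.09 against 62.29). Of grey matter barcodes 21.44% were over the limit on mitochondrial UMIs, against 4.325% in white matter and 5.527% in P60 cortex. With that limit at 20%, all kept cells had 5.826 CPM of Igf2bp3 in grey matter, 38.65 in white matter and 41.35 in P60 cortex. The part of cell quality, of the overlap, of the library or of the region in this difference was not tested, since each side is 1 library.

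**Figure D4:**
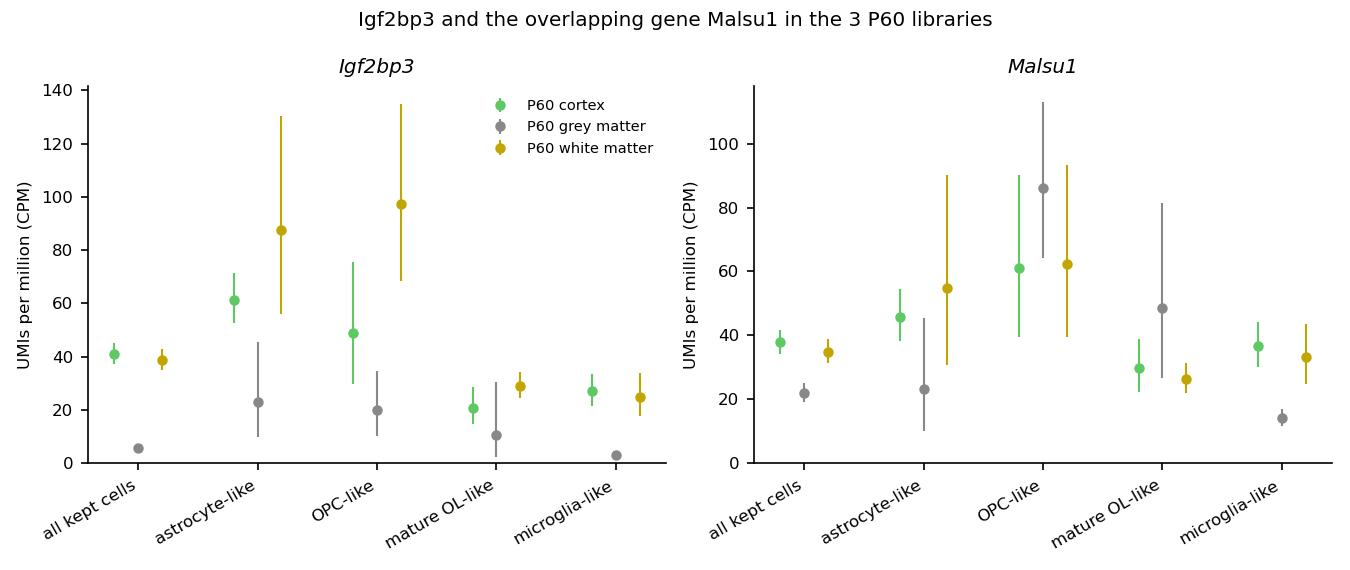
Levels (y axis, CPM) of Igf2bp3 (left) and of Malsu1, which overlaps it on the other strand (right), in the 3 P60 libraries by class (x axis), with exact Poisson 95% intervals. Igf2bp3 is lowest in grey matter in each class shown, from 2.901 in microglia-like to 23.11 in astrocyte-like cells, whereas Malsu1 is not lower there in OPC-like or mature oligodendrocyte-like cells.

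Igf2bp3 was also lower in P7 SVZ than in P7 cortex. The ratio over all kept cells was 0.6346 (0.5838 to 0.6898), and it was alike in astrocyte-like (0.6552), OPC-like (0.6399), radial or transit-amplifying precursor-like (0.6466) and neuroblast-like cells (0.6741), each with an interval below 1. In microglia-like (0.7338, 0.5206 to 1.018) and COP-like cells (1.062, 0.7384 to 1.529) the interval included 1. Malsu1 went the other way over all kept cells, 80.38 CPM in P7 SVZ and 48.08 in P7 cortex.

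With age Igf2bp3 took different courses in different classes, each from 1 library an age and with no test. Excitatory neuron-like cells had 29.7 CPM (27.45 to 32.08) in P2 cortex, 58.31 (47.0 to 71.51) in P15 cortex and 55.96 (44.17 to 69.95) in P60 cortex, so that P2 was 0.5094 times P15 (0.4089 to 0.6409). Microglia-like cells had 54.99 CPM in P7 cortex and 16.6 in P15 cortex, a ratio of 3.313 (2.308 to 4.87), and 26.95 in P60 cortex. In excitatory neuron-like cells it was thus higher at P15 than at P2, and in microglia-like cells lower than at P7. Different clusters held these cells at each age: the excitatory neuron-like cells of P2 were mainly in clusters 5, 9, 11 and 66 and those of P15 in cluster 50 (87 cells), and the microglia-like cells of P7 cortex were in cluster 2 (354 cells) and those of P15 mainly in cluster 38 (311). OPC-like cells of cortex had 71.15, 54.73, 53.78 and 48.9 CPM at P2, P7, P15 and P60, and of the pairs of ages compared only P2 over P15 had an interval that excluded 1 (1.323, 1.002 to 1.735). Over the 7 libraries the stage difference in OPC-like cells was -0.206 (SE 0.424, edgeR adjusted p = 0.825), and it was 0.225 without P60 grey matter.

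Hmga1 (chr17:27556497-27563674, plus strand), a chromatin protein of dividing and embryonic cells, was found at all ages. Pooled over libraries its level was 11.29 CPM in cortical interneuron-like cells (P2 cortex alone), 9.805 in border-associated macrophage-like (11 UMIs), 9.762 in excitatory intermediate precursor-like, 9.405 in microglia-like and 8.857 in radial or transit-amplifying precursor-like cells. It shares 102 bases at its 3' end with AI413582 on the opposite strand and has a near copy, Hmga1b, whose reads may be split with it. In radial or transit-amplifying precursor-like cells it had 11.2 CPM in P2 cortex, 4.27 in P7 cortex, 10.4 in P7 SVZ, 9.57 in P15 cortex and 32.33 (15 UMIs, 18.1 to 53.33) in P60 white matter, the last from 44 cells. In microglia-like cells it lay between 6.94 CPM in P60 grey matter and 22.33 in P2 cortex (5 UMIs), with a mean of 12.13 ± 5.31 (SD, n = 7). The class means of excitatory intermediate precursor-like (14.65 ± 9.213, n = 3), radial or transit-amplifying precursor-like (13.54 ± 10.84, n = 5, raised by P60 white matter) and microglia-like cells did not differ beyond this spread.

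Over all kept cells Hmga1 was lowest, among the early libraries, in P7 cortex (4.204 CPM), but not in every class. COP-like cells had 6.131 CPM there, 3.206 in P7 SVZ and 3.393 in P15 cortex. In OPC-like cells the levels were 10.54, 2.96, 10.78 and 8.64 CPM in P2 cortex, P7 cortex, P7 SVZ and P15 cortex, and 4.89, 1.66 and 2.71 in the adult libraries from 2, 1 and 1 UMIs. P7 SVZ exceeded P7 cortex 3.642 times in OPC-like (1.708 to 8.915), 2.428 times in radial or transit-amplifying precursor-like (1.577 to 3.831), 2.16 times in neuroblast-like (1.12 to 4.381) and 5.548 times in astrocyte-like cells (1.964 to 16.88). In microglia-like (1.358) and COP-like cells (0.5229) the interval included 1. In the unnamed clusters P7 SVZ was below P7 cortex (0.3342, 0.1692 to 0.6895). At the level of clusters, the highest value with at least 10 UMIs was in an unnamed cluster of 37 cells led by Neurog2 and Eomes, genes of cortical intermediate progenitors, with 17 UMIs (47.34 CPM, 27.58 to 75.8).

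Hmga2 (chr10:120361275-120476469, minus strand), which is known to sustain stem cells of the fetal brain, was close to the limit of detection. Of its 89 UMIs, 28 lay in microglia-like cells, 19 in OPC-like and 18 in radial or transit-amplifying precursor-like cells. OPC-like cells had 4, 0, 11 and 3 UMIs in P2 cortex, P7 cortex, P7 SVZ and P15 cortex and 0, 1 and 0 in the adult libraries. In microglia-like cells the levels from P15 on were 2.69 CPM (P15 cortex), 2.42 (P60 cortex), 1.39 (P60 grey matter) and 1.28 (P60 white matter), from 2 to 11 UMIs, after 0.667 in P7 cortex and 0 in P2 cortex and P7 SVZ. Its gene body overlaps the antisense genes 1700006J14Rik and 9230105E05Rik, so reads of these cannot be told apart from it where strand was not used.

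Lin28b (chr10:45376620-45486395, minus strand), the let-7 antagonist, was found mostly in striatal neurons. Striatal neuron-like cells of P7 SVZ held 109 of its 200 UMIs (14.1 CPM, 11.53 to 16.94), and those of P2 cortex, 52 cells, held 2 (3.62 CPM, 0.4379 to 13.06). These cells lay in 2 main clusters, one with Penk and Tac1 among its leading genes (73 UMIs, 13.85 CPM) and one with Tac1 and Isl1 (33 UMIs, 13.17 CPM), whose levels did not differ beyond counting error. Both carry genes of the projection neurons of the striatum, the region beside the lateral V-SVZ. With the mitochondrial limit at 20% in place of 10%, which restored cells to this library, the level in striatal neuron-like cells was 14.65 CPM from 129 UMIs. Excitatory neuron-like cells of P7 SVZ, 162 at that limit and 60 at 10%, then held 22 Lin28b UMIs (5.228 CPM). At 10% this class held 18 Lin28b UMIs over all 4 of its libraries together. Cells were clustered and named anew at the 20% limit, which left 524 unnamed cells in place of 923. The part of restored cells and of renaming in the count of 22 was not tested.

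Within P7 SVZ the Lin28b signal differed between classes beyond counting error, also at equal depth. A UMI was found in 16.45% (exact interval 13.42 to 19.85) of striatal neuron-like cells, at a median of 15009 UMIs a cell, but in 0.2364% (0.02864 to 0.8513) of radial or transit-amplifying precursor-like cells, at 7317.5, and in 0 of 304 astrocyte-like cells, at 7993. With each cell thinned to 2000 UMIs the shares were 2.372% (1.231 to 4.106) and 0.1224% (0.003099 to 0.6801) in the first 2. Precursors therefore carried little Lin28b RNA: 3 UMIs in 19984642 over 5 libraries. Unnamed clusters of P7 SVZ held 36 more UMIs (7.54 CPM), 19 of them in the cluster led by Hs3st4, Nxph3 and Trbc2 that was also high in Igf2bp2.

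Over all kept cells P7 SVZ had 69.46 times the level of P7 cortex (18.92 to 578.4; 161 and 2 UMIs), again with region, strain and library joined, and P7 cortex held no striatal neuron-like cell. Outside P7 SVZ, Lin28b was seen at low counts, in neurons of cortex and in microglia. Cortical interneuron-like cells of P2 cortex had 10 UMIs (2.89 CPM, 1.388 to 5.322), and excitatory neuron-like cells had 7 at P2 (0.322 CPM), 2 at P15 (1.27 CPM) and 8 at P60 (5.81 CPM, 2.51 to 11.46). The adult signal of Lin28b was almost wholly these 8 UMIs, from 142 cells of 1 library. Of the glia, microglia-like cells had 3 UMIs in P2 cortex (13.4 CPM, 2.762 to 39.15, from 25 cells), 2 in P7 cortex, 3 in P7 SVZ and 0 in the other 4 libraries. OPC-like cells had 2 UMIs in P2 cortex and 2 in P7 SVZ, astrocyte-like cells 1 in all, and mature oligodendrocyte-like cells 0. Lin28a, its better known relative of the early embryo, had 6 UMIs over all cells.

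Cycling cells were compared with non-cycling cells of the same class and library, with the library as a block. The planned call, on 94 S and G2M genes, named 48.12% of striatal neuron-like and 38.44% of mature oligodendrocyte-like cells as cycling and left under 1% of radial cells non-cycling, so it could be fitted only in astrocyte-like cells, where 1 of 6 genes was tested and 0 were called (background 0.115%; Igf2bp3 -0.188, SE 0.202, edgeR adjusted p = 0.944). A shorter list of 24 core cycle genes, chosen after seeing this, named 0.3578% and 0.2041% of those 2 classes as cycling, 28.34% of radial or transit-amplifying precursor-like, 28.05% of neuroblast-like and 18.69% of OPC-like cells. The results below use it.

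Hmga1 rose in cycling precursors. Radial or transit-amplifying precursor-like cells that cycled had 18.43, 6.9, 15.24 and 8.72 CPM in P2 cortex, P7 cortex, P7 SVZ and P15 cortex, against 6.98, 1.80, 5.62 and 9.68 in non-cycling cells, so it was higher in 3 of 4 libraries and the exception, P15 cortex, rests on 4 UMIs a side. The means were 12.32 ± 5.423 and 6.018 ± 3.282 CPM (SD, n = 4), and the log2 difference was 1.48 (SE 0.307, edgeR adjusted p = 0.00158). Without P7 SVZ the difference was 1.4 and the adjusted p 0.0203. Without the library block it was 0.0679, so the call rests on comparing cells within libraries.

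Igf2bp3 moved the other way in the same cells. It fell by 0.554 on the log2 scale (SE 0.18, edgeR adjusted p = 0.0211) and was lower in cycling cells in 4 of 4 libraries, with 34.46, 24.84, 20.88 and 17.43 CPM in P2 cortex, P7 cortex, P7 SVZ and P15 cortex against 46.68, 44.89, 26.31 and 50.81. Without P7 SVZ the difference was -0.724 (adjusted p = 0.0143). The adjusted p was 0.129 without P7 cortex and 0.0959 without the block. These 2 were the only members tested in this class, and both were called, against 54.1% of all genes (27.3% higher and 26.8% lower in cycling cells): a call was common here, and the count of 2 says nothing particular to these genes.

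Igf2bp1 had too few counts for the test with all 4 libraries. Cycling radial or transit-amplifying precursor-like cells had 15, 10, 18 and 0 UMIs in P2 cortex, P7 cortex, P7 SVZ and P15 cortex (12.02, 3.45, 5.08 and 0 CPM), and non-cycling cells, though more numerous, had 1, 9, 1 and 0 (0.436, 2.69, 0.296 and 0 CPM). P7 cortex was the library where the groups were close.

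**Figure D5:**
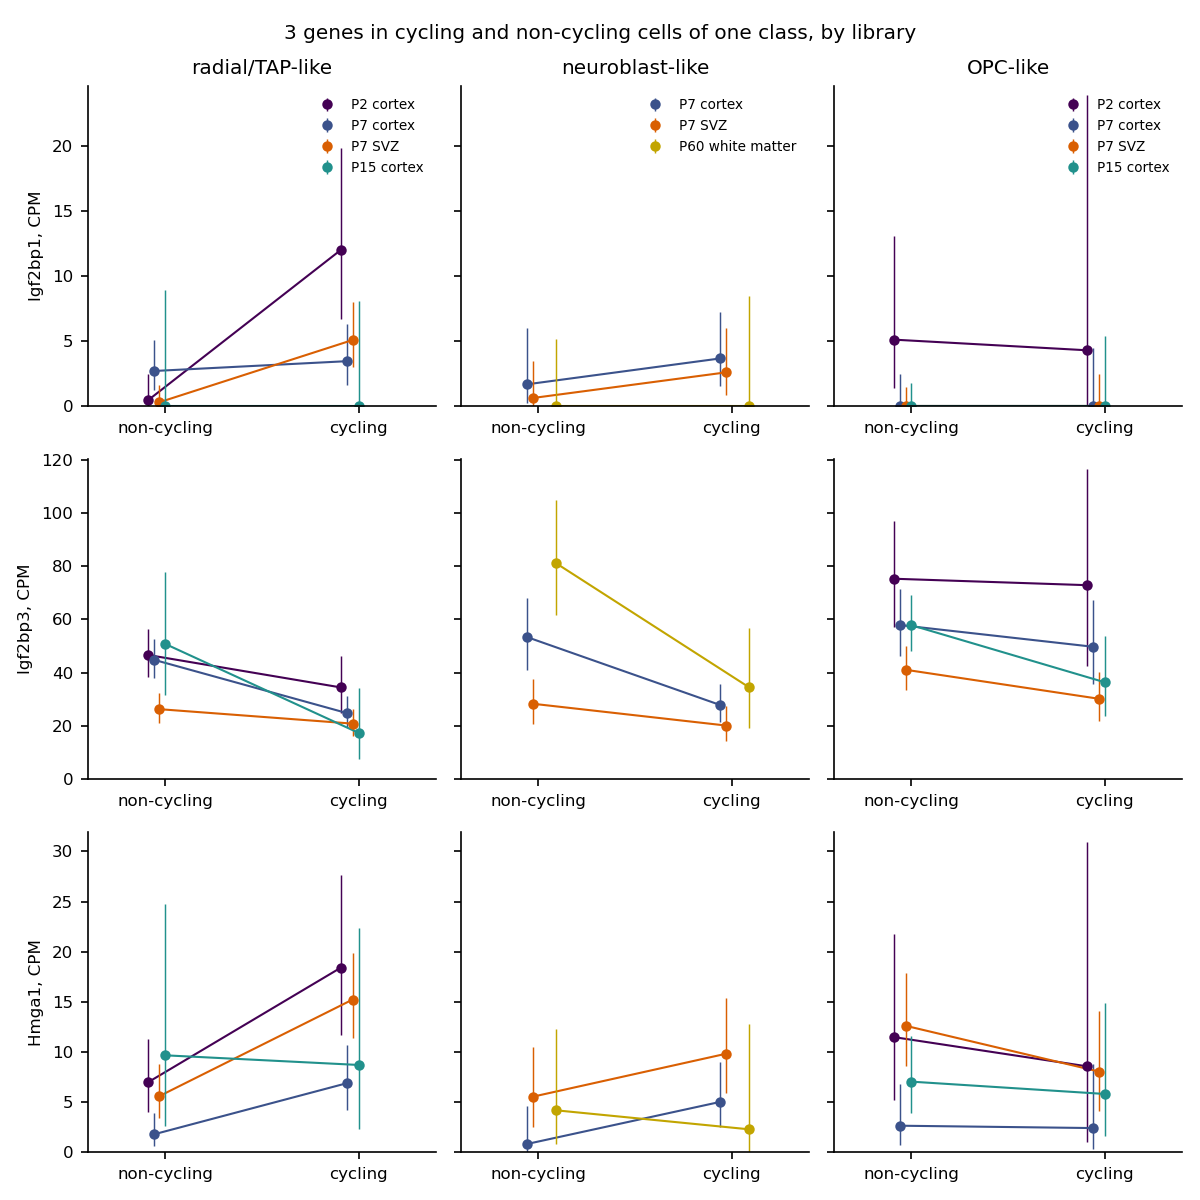
Levels (y axis, CPM) of Igf2bp1, Igf2bp3 and Hmga1 in non-cycling and cycling cells of 3 classes (columns), with exact Poisson 95% intervals and a line joining the 2 groups of each library. Igf2bp3 is lower in cycling cells on every line, and in radial or transit-amplifying precursor-like cells Hmga1 and Igf2bp1 are higher in P2 cortex, P7 cortex and P7 SVZ.

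In neuroblast-like cells Igf2bp3 had 27.9, 20.18 and 34.54 CPM in cycling and 53.42, 28.36 and 81.2 CPM in non-cycling cells of P7 cortex, P7 SVZ and P60 white matter. It was the 1 member tested there and it was called lower, against a background of 36.4% (18.7% higher, 17.7% lower), with a difference of -0.822 (SE 0.216, edgeR adjusted p = 0.00742, lower in 3 of 3 libraries). Without P7 SVZ the difference was -1.02 (adjusted p = 0.0123). Its adjusted p was 0.0849 in DESeq2, 0.181 without the block and 0.0778 without P7 cortex. In OPC-like cells the 1 member tested, Igf2bp3 again, was not called (-0.339, SE 0.158, edgeR adjusted p = 0.122, lower in 4 of 4 libraries; background 22.5%, 13.1% higher and 9.42% lower). Hmga1 in OPC-like cells did not pass the filter and had 8.57, 2.43, 8.06 and 5.83 CPM in cycling against 11.49, 2.66, 12.62 and 7.05 in non-cycling cells of P2 cortex, P7 cortex, P7 SVZ and P15 cortex.

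Cycling cells were deeper than non-cycling ones (median 14139 against 6512 UMIs in radial or transit-amplifying precursor-like cells of P7 SVZ, and 9657 against 3577.5 in its neuroblast-like cells). They also sat in other clusters: the radial cycling cells were spread over clusters led by Cdc20, Hist1h1b and Mgarp, and the non-cycling ones over clusters led by Gm26532, Thbs4 and Prss23. The part of depth and of cell state in these differences was not tested.

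The wider pathway was read from lists of related genes, chosen with earlier results of these data known. In all kept cells 0 of 85 list entries tested were called between stages. In OPC-like cells the other high mobility group genes had 3 of 9 tested lower in the adult and 0 higher (median log2 difference -0.53, against 0.0047 over all genes, of which 3.37% were called lower and 2.94% higher). Adult OPC-like cells were mostly (97.8%) in cluster 24, early ones mainly in clusters 8 (39.3%) and 47 (29.4%), and the OPC-like cluster led by mitotic genes held 18, 51, 74 and 38 cells of P2 cortex, P7 cortex, P7 SVZ and P15 cortex and 3, 1 and 1 of the adult libraries. The part of these in the differences that follow was not tested. The genes lower were the chromatin genes Hmgb2 (486.1 ± 103.9 CPM early, SD, n = 4, and 201.3 ± 38.49 adult, n = 3; -1.48, SE 0.246, edgeR adjusted p = 0.00775), Hmgb3 (-1.24) and Hmgn2 (-0.891). Of 16 let-7 targets tested, 2 were lower, among them Cdk6, a kinase of G1 (-1.27; list median -0.32). The mRNAs bound by Igf2bp proteins had 1 of 5 lower, the growth cone gene Gap43 (-1.49), the neural RNA-binding proteins 1 of 16, Elavl2 (-1.73), and the fetal growth list 2 of 7, the chromatin silencer Ezh2 (-1.72) and the cell cycle factor E2f1 (-2.34). The let-7 machinery had 0 of 7 called and the m6A genes 0 of 13. These calls rest on the libraries: without P60 grey matter edgeR called 12 genes in OPC-like cells in place of 623.

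In cycling radial or transit-amplifying precursor-like cells most lists held called genes, as did all genes at the background above. The let-7 target and fetal growth lists hold cell cycle genes, such as Cdk6 and E2f1, and the cells were split by cycle genes. Their counts therefore cannot separate let-7 or growth from the cycle itself. Let-7 targets had 10 of 17 higher and 1 lower (median 0.782, against -0.00905 over all genes), with Cdk6 at 184.4 ± 29.59 CPM cycling and 47.58 ± 4.303 non-cycling (SD, n = 4; 2.08, SE 0.133, edgeR adjusted p = 2.09e-07) and the neural stem cell factor Nr2e1 lower (-1.13). Other high mobility group genes had 6 of 8 higher and 1 lower (median 1.39), led by Hmgn2 (2.4). Of the let-7 machinery 5 of 8 were higher and 0 lower, among them the microprocessor genes Drosha (0.528) and Dgcr8 (0.775) and the terminal uridylase Zcchc11 (0.378). Neural RNA-binding proteins had 11 of 16 higher and 1 lower, Qk (-0.576), m6A genes 7 of 13 higher and 0 lower, the fetal growth list 4 of 9 higher and 2 lower, and the Igf2bp-bound mRNAs 1 of 6 higher, Actb (0.695). In cycling neuroblast-like cells 18.7% of all genes tested were called higher and 17.7% lower. The same lists there had 7 of 17 let-7 targets higher and 4 lower. Of 4 Igf2bp-bound mRNAs 0 were higher and 3 lower (Gap43, Mapt and Btrc). Other high mobility group genes had 7 of 8 higher and 1 lower, and the fetal growth list 5 of 8 higher and 2 lower. Neural RNA-binding proteins had 5 of 16 higher and 4 lower. The m6A genes had 2 of 13 higher and 0 lower, and the let-7 machinery 0 of 7 higher and 1 lower.

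The genes whose levels ran most like each member were sought over 53 sums of at least 50 cells (15 classes) among 11075 genes, by Pearson's correlation of log2(CPM + 10), and are given with no test, since the sums share libraries and depth. Lin28b ran with Drd1 (0.8808), the dopamine receptor of direct-pathway striatal neurons, Penk (0.8788), the enkephalin gene of indirect-pathway neurons, and Lgi2 (0.8714). For Igf2bp3 the 3 were Guf1 (0.7357) and Mrps10 (0.697), both of mitochondrial translation, and Itfg2 (0.6698). With the overlapping gene Malsu1 the correlation of Igf2bp3 over 53 sums was 0.1859. Igf2bp1 ran with Syce2 (0.5737), Sart3 (0.5588) and the cold-inducible RNA-binding gene Cirbp (0.5171), Igf2bp2 with Cebpzos (0.5884), Clgn (0.583) and Kcnk12 (0.5625), and Hmga1 with Aagab (0.5621), Ivns1abp (0.5611) and Rpl12 (0.5506). Hmga2 had too few UMIs for this.

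Shares of cells with a UMI, thinned to 2000 UMIs a cell and compared between stages with the exact two-sided permutation test (smallest p 0.05714), gave adjusted p of 0.8914 or more in each of 18 tests (6 genes in all kept, OPC-like and microglia-like cells). For OPC-like cells the mean share with an Igf2bp3 UMI was 10.22% ± 1.99 early (SD, n = 4) and 11.68% ± 7.696 adult (n = 3), a spread within which no difference could be seen. The unthinned shares were 30.27% and 19.41%, from cells of unequal depth.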

How the data were processed

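Single-cell RNA of 7 mouse brain libraries was analysed. The authors deposited raw UMI counts per gene and barcode as filtered matrices, written by Cell Ranger 3.0.2 per the file headers, with mm10 as the build per the submitters' processing notes. No source used here gives the gene annotation release or whether counting used strand.

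Barcodes with under 500 genes (1304) or over 10% mitochondrial UMIs (3441) and the 305 barcodes that Scrublet called as doublets (rate set to 0.06, scanpy 1.11.5) were removed. This left 20697 of 25747 barcodes, from libraries of 10074763 to 45668007 UMIs. Cells were clustered (2000 variable genes, 30 components, 15 neighbours, Leiden resolution 1.5, igraph 0.11.9) and each cluster was named only from at least 3 markers of a listed class. Of 92 clusters, 12 (923 cells) stayed unnamed, and large clusters with near ties had been split again at resolution 0.5, a step chosen after seeing the data.

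UMIs were summed per class and library (at least 20 cells, or 15 for cycling calls) and tested with edgeR 4.0.16 in R 4.3.3 (TMM, filterByExpr, adjusted over all genes tested). A cell thinned to 2000 UMIs was called cycling at 3 UMIs of 94 genes or, on the shorter list, at 2 of 24, and non-cycling at 0. The cycle genes were left out of those tests. Thinning left out 1687 shallower cells. The library was a block in the cycling tests, since both groups came from it. Where fewer than 3 libraries had both groups, or 1 library stood on each side, no test was made. Alternatives were no filter, DESeq2 1.42.0, a 20% mitochondrial limit, resolution 1.0, a minimum of 50 cells, no library term, a cycling call at 5 UMIs and each library left out in turn. The steps were tested on simulated data.

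Named genes are the 6 members, the 3 genes most like each member with at least 200 UMIs, and examples of the genes called in each pathway list. Some called or leading genes are not reported here. The members and lists were chosen with earlier results of these data known. Sequences come from RefSeq (let-7, GRCm38.p6) and from GENCODE M21 transcripts. Intervals cover counting error only.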

Additional observations from a re-analysis of the deposited data

Results flagged for a closer look

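In 2 of 22 groups of 4 libraries 1 library stood far from the other 3, where chance flags about 1 group in 20. Both were P7 SVZ in the sum of all kept cells: Igf2bp2 at 4.446 CPM, with the next library at 2.161, and Lin28b at 4.391 CPM, with the next at 0.7203. P7 SVZ was also the only C57BL/6 library, the only one of microdissected V-SVZ, and the one with most striatal neuron-like cells. The part of each was not tested.

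In some pairs of classes the cycling cells differed from the non-cycling ones in opposite directions, in every library of each. Igf2bp3 was higher in cycling than in non-cycling microglia-like cells in P7 cortex (75.53 and 42.55 CPM) and in P7 SVZ (48.93 and 37.7), with 68.92 CPM in cycling cells pooled. It was lower in cycling radial or transit-amplifying precursor-like, neuroblast-like and OPC-like cells (24.17, 25.26 and 39.59 CPM pooled). Astrocyte-like cells, with 1 library, had 54.28 CPM cycling (12 UMIs, 28.05 to 94.82) and 46.19 non-cycling, so the cycling interval held the non-cycling level. Hmga1 was at 11.49 CPM in cycling microglia-like cells pooled and 8.084 in non-cycling ones (17 and 17 UMIs). In OPC-like cells it was at 6.186 in cycling and 8.588 in non-cycling cells (20 and 59 UMIs). In each library of these 2 classes the cycling and non-cycling intervals of Hmga1 overlapped. In radial or transit-amplifying precursor-like (3 of 4 libraries) and neuroblast-like cells (2 of 3) Hmga1 was mostly higher in cycling cells, as in microglia. These differences between classes were not tested, since only 2 libraries had enough cycling microglia-like cells.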

How the results depend on the processing

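No member was called between stages in any edgeR fit. DESeq2 called 1 (Igf2bp1, all kept cells), and 1328 genes in place of 5. Genes called elsewhere moved as follows. Without the filter on low counts there were 766 in astrocyte-like (main value 4), 192 in COP-like (0), 228 in microglia-like (3), 119 in neuroblast-like (2) and 1237 in OPC-like cells (623). DESeq2 gave 446, 43, 276 and 8 in the first 4. Resolution 1.0 gave 20 in astrocyte-like and 0 in neuroblast-like cells. The 20% mitochondrial limit gave 53, 2, 5 and 0 in astrocyte-like, COP-like, microglia-like and neuroblast-like cells. With the long cycle list, astrocyte-like cells had 7, and 0 without the library term, 0 in DESeq2 and 17 at 5 UMIs. With the core list and no library term, members called fell to 0 in radial or transit-amplifying precursor-like (2) and 0 in neuroblast-like cells (1; also 0 in DESeq2), with genes at 3347 (5805) and 942 (3253; 1786 in DESeq2). In OPC-like cells they were 376, and 835 in DESeq2 (2083).

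Leaving out 1 library at a time, genes called ranged over 0 to 2 (all kept cells), 0 to 1950 (astrocyte-like, most without P15 cortex), 0 to 27 (COP-like), 2 to 623 (microglia-like), 0 to 4 (neuroblast-like) and 12 to 1235 (OPC-like). In the cycling fits they ranged over 2 to 9 (astrocyte-like), 1451 to 2046 (OPC-like), 4401 to 5926 (radial or transit-amplifying precursor-like, 1 to 3 members) and 2221 to 3378 (neuroblast-like, 0 to 1 member). Signs turned for Igf2bp3 over all kept cells (-0.669 to 0.139, the last without P60 grey matter), in OPC-like (-0.893 to 0.225, likewise), astrocyte-like (-0.0542, without P60 white matter, to 0.558) and cycling astrocyte-like cells (-0.35 to 0.134, without P7 cortex). They also turned for Hmga1 in astrocyte-like (-1.14, without P60 cortex, to 1.1) and microglia-like cells (-0.0833 to 0.373; -0.0343 without P15 cortex, -0.006 without P60 white matter), and for Igf2bp2 in microglia-like cells (-0.811 to 0.146, without P60 grey matter). The differences of Igf2bp1 (-8.37 to -4.72) and Lin28b (-7.96 to -1.71) over all kept cells kept their sign. Unthinned shares turned to -0.4256 (Igf2bp1) and -10.86 percentage points (Igf2bp3) in OPC-like cells, from 0.1298 and 1.456. Of 170 alternatives to 19 member differences, 154 kept direction and call. Among classes with members tested, a minimum of 50 cells gave a fit of its own only in microglia-like cells (0 members called), and elsewhere it kept the same libraries or left fewer than 2 in a stage. The causes were not tested. No paired analysis between stages was possible because the labels do not link libraries of one stage to those of the other, while in the cycling fits the library was the block.

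The counts limit Hmga2 (89 UMIs), Lin28b (200) and Igf2bp1 (221) to classes with many cells, and no adult value of these 3 genes rests on over 13 UMIs.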
